A study of Mus musculus with 3 samples.

Results

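The liver and gut microRNAs (miRNAs) miR-122, miR-192, miR-194 and miR-215 were followed in exosomes, small vesicles that cells release, from mouse bone-marrow-derived macrophages. The members were chosen by name, as the rows of mmu-miR-122-5p, mmu-miR-122-3p, mmu-miR-192-5p, mmu-miR-192-3p, mmu-miR-194-5p and mmu-miR-215-5p (mmu for mouse, left out below), which are 6 of the 1915 mature miRNAs listed. The study has 1 group of 3 small RNA libraries, replicates 1 to 3, called libraries 1 to 3 here, all from wild-type C57BL/6 mice. Femur and tibia marrow was cultured for 24 h with M-CSF, which drives macrophage formation. The cells then shed vesicles for 72 h into medium whose serum had been freed of exosomes, and these were spun down by ultracentrifugation. The ages of the adult mice and any pooling of animals are not stated, and nothing says that the libraries came from separate cultures, so the spread between them may be technical. No other condition and no library of the parent cells was analysed here, so every comparison below is between libraries, between miRNAs or between the arms of a hairpin.

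Each miRNA is cut from a hairpin RNA whose 5p and 3p arms can both give a mature strand, and usually 1 arm is kept and loaded into Argonaute while the other is degraded. MiR-122-5p is the dominant miRNA of hepatocytes, where it supports lipid and cholesterol metabolism, and it appears in blood when hepatocytes are injured. MiR-192, miR-194 and miR-215 are made together from shared primary transcripts and are abundant in intestinal epithelium, liver and kidney. The bases from position 2 to 8 of a mature miRNA, the seed, pair with target mRNAs, so miRNAs with the same seed share many predicted targets.

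RefSeq sequences (GRCm38.p6) were matched for 4 of the 6 members. Those of the main arms are shown with the seed in capitals, since the seed joins miR-192-5p to miR-215-5p and sets miR-194-5p apart:
miR-192-5p: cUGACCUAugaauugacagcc
miR-215-5p: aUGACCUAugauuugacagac
miR-194-5p: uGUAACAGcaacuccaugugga
Counted from the 5′ end, miR-215-5p differs from miR-192-5p at 3 of 21 bases, C1A, A12U and C20A, all outside the seed. Among the 1623 listed miRNAs with a RefSeq sequence, miR-215-5p was the 1 other miRNA with the seed of miR-192-5p, and 0 others had the seed of miR-194-5p.

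The genes lie in a pair of clusters, and both hold a copy of miR-194. On chromosome 19 of GRCm38 the Mir194-2 hairpin (chr19:6264643-6264728, plus strand) lies 115 bases before Mir192 (chr19:6264844-6264932, plus strand), and GENCODE M21 lists no other gene over either. On chromosome 1 the Mir194-1 hairpin (chr1:185313319-185313385, plus strand) lies 195 bases before Mir215 (chr1:185313581-185313692, plus strand). Both are within the noncoding antisense gene 2010103J01Rik, Mir215 in an exon and Mir194-1 in an intron, and opposite an intron of Iars2, which encodes a mitochondrial isoleucyl-tRNA synthetase. The mature miR-194-5p is the same 22 bases in both hairpins, so its counts cannot be split between the clusters. The 3p arms do differ, and are shown with the differing bases in capitals:
miR-194-1-3p: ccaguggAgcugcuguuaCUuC
miR-194-2-3p: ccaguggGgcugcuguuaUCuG
The 4 differences from miR-194-1-3p to miR-194-2-3p are A8G, C19U, U20C and C22G. The chromosome 19 hairpins are shown whole, with their 5p and 3p mature arms in capitals, as the sources of miR-192-5p and of the 1 counted 3p arm:
Mir192: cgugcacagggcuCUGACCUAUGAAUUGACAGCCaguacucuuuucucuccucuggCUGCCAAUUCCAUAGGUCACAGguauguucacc
Mir194-2: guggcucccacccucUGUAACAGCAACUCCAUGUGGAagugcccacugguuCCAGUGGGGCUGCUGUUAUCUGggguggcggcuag

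The libraries held between 2489984 and 3208617 counts assigned to mature miRNAs, and counts were scaled to these totals as counts per 1000000 miRNA counts (CPM). A count of 0 allows up to 3 counts, which is 0.997, 1.20 and 0.935 CPM in libraries 1, 2 and 3. Intervals and floors cover counting error only, since PCR products without molecular identifiers are not independent molecules. Library 1 stands apart: of the 353 miRNAs that reached 30 counts over the libraries, 68.0% were higher in it than in library 2 and 64.9% higher than in library 3, with median log2 ratios of 0.75 and 0.97. Of 8 macrophage and myeloid marker miRNAs 7 were counted in every library, and the eighth, miR-511-3p, had 10, 2 and 0 counts. Their sum was far lower in library 1, at 71315, 345021 and 300167 CPM in libraries 1, 2 and 3. MiR-21a-5p made up most of that sum. The blood-cell miR-142a-3p had 42.9, 1364 and 819 CPM. Other markers did not follow this: miR-146a-5p had 33401, 35012 and 36543 CPM and miR-223-3p 35.6, 52.6 and 33.0 CPM. MiR-342-3p was highest in library 1, at 149, 106 and 65.4 CPM. Of the 7 counted in every library, 1 was highest in library 1, 5 in library 2 and 1 in library 3. The share of all tested miRNAs highest in each library is not given here, so these counts have no background. The part of these markers in the differences of library 1 described below was not tested.

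All counts of the members fell on 5p arms. The members together had 4348, 2874 and 6513 counts in libraries 1, 2 and 3, or 0.154% ± 0.0446 of miRNA counts (SD, n = 3). In order of mean level, miR-122-5p, miR-192-5p, miR-194-5p and miR-215-5p were each counted in every library, while miR-122-3p and miR-192-3p had 0 counts in all 3.

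MiR-122-5p, the hepatocyte miRNA, had 968, 1364 and 4813 counts in libraries 1, 2 and 3, or 322, 548 and 1500 CPM. Library 3 was far above both others, and miR-122-5p held rank 97, 72 and 46 among the miRNAs of libraries 1, 2 and 3. The mean was 790 ± 625 CPM (SD, n = 3) and 435 CPM without library 3. Its level in library 1 was 0.587 times that in library 2 (exact 95% interval 0.540 to 0.638) and 0.214 times that in library 3 (0.200 to 0.230). Against the general tilt between these libraries it was lower still in library 1, by 1.51 and 3.19 on the log2 scale below the median of the 353 tested miRNAs, and 20.7% and 9.35% of them had lower ratios.

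MiR-192-5p, known in liver, gut and kidney and induced by p53 in human cells, had 3211, 1196 and 1504 counts, or 1067, 480 and 469 CPM. Here library 1 was the high one. Scaled to miRNA totals, libraries 2 and 3 were close, with a ratio of 1.02 (exact 95% interval 0.949 to 1.11). That closeness depended on the scaling, and library 3 was the higher of them under each other scaling run, as given in the last section. Library 1 exceeded library 2 by a ratio of 2.22 (2.08 to 2.38) and library 3 by 2.28 (2.14 to 2.42). Most miRNAs were higher in library 1 too. Relative to the median of the tested miRNAs, miR-192-5p was 0.40 and 0.22 higher in library 1 than in libraries 2 and 3 on the log2 scale, and 63.5% and 54.7% of tested miRNAs had lower ratios. The mean was 672 ± 342 CPM (SD, n = 3), and the ranks were 61, 79 and 76.

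MiR-194-5p, the partner of miR-192 and miR-215 in both clusters, had 131, 309 and 189 counts, or 43.5, 124 and 58.9 CPM. It was highest in library 2 and lowest in library 1, the reverse of the order of miR-192-5p between those libraries. The ratio of library 1 to library 2 was 0.351 (exact 95% interval 0.284 to 0.432) and of library 2 to library 3 was 2.11 (1.75 to 2.54). Its mean was 75.5 ± 42.8 CPM (SD, n = 3).

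MiR-215-5p, which shares its seed with miR-192-5p, was close to the limit of detection, with 38, 5 and 7 counts, or 12.6, 2.01 and 2.18 CPM. Library 1 was again high, at 6.29 times library 2 (exact 95% interval 2.47 to 20.5) and 5.79 times library 3 (2.55 to 15.4), while libraries 2 and 3 overlapped, with a ratio of 0.920 (0.230 to 3.37). The mean of 5.61 ± 6.08 CPM (SD, n = 3) was 2.09 CPM without library 1.

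**Figure D1:**
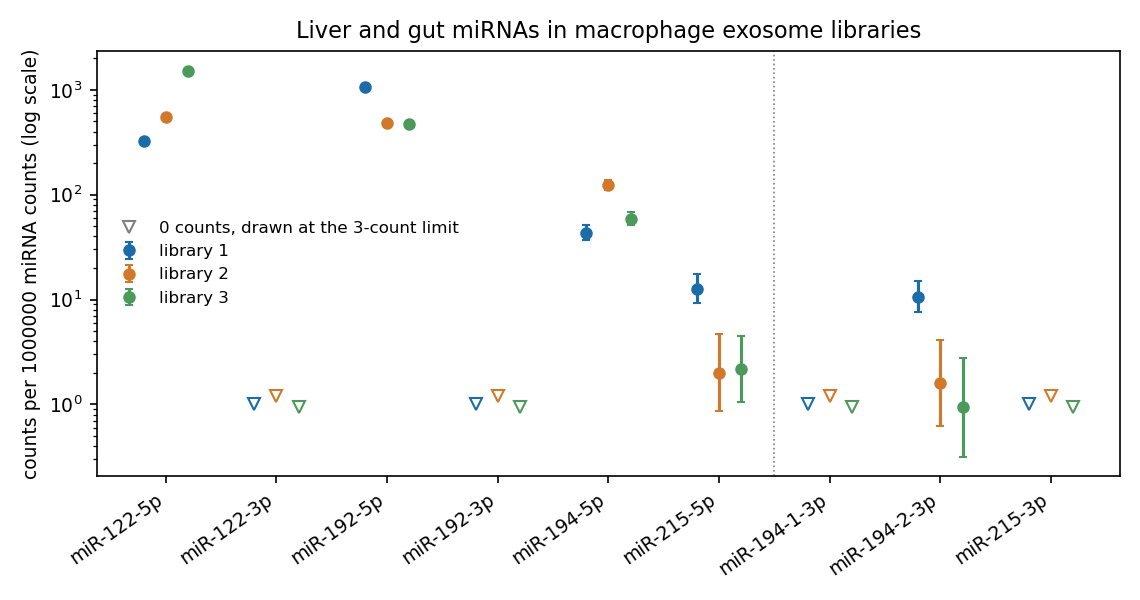
Counts per 1000000 miRNA counts (log axis) of the 6 members, left of the dotted line, and of the 3 other arms of their hairpins, right of it, with 1 point per library and Wilson 95% intervals for counting error. Open triangles mark 0 counts and stand at the 3-count limit of their library. MiR-122-5p is highest in library 3 at 1500 CPM, miR-192-5p in library 1 at 1067 CPM and miR-194-5p in library 2 at 124 CPM.

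A chi-square test set each miRNA's 3 counts against the library totals, and its p-values were adjusted by Benjamini-Hochberg over all 353 miRNAs tested. It asks whether libraries differ by more than counting error and says nothing of conditions. Of the 6 members 4 had enough counts to be tested, and all 4 were called, against a background of 90.1% of tested miRNAs called, so the count is near what any miRNA showed. The smallest chi-square value among them was 38.0, for miR-215-5p, with an adjusted p of 8.67e-09. Without library 1, 2 members were called, miR-122-5p and miR-194-5p, of 3 that could be tested, beside 177 of all 288 miRNAs tested (61.5%), and miR-192-5p had an adjusted p of 0.587. The coefficient of variation over the libraries was 79.2% for miR-122-5p, 50.9% for miR-192-5p and 56.6% for miR-194-5p, beside a median of 60.5% over the 265 miRNAs that averaged 10 CPM or more.

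**Figure D2:**
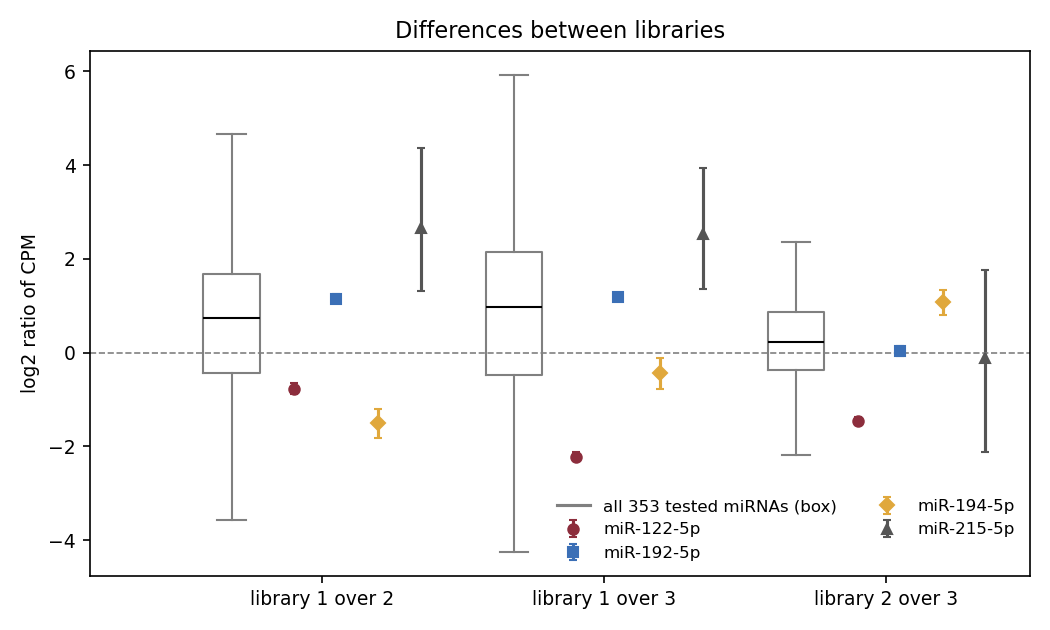
Log2 ratios of CPM for each pair of libraries, with exact 95% counting intervals for the 4 counted members and a box for all 353 tested miRNAs (median, quartiles, and whiskers to the last value within 1.5 box lengths). MiR-122-5p and miR-194-5p lie below 0 for library 1 over 2 and over 3, where the median miRNA lies at 0.75 and 0.97, and miR-192-5p and miR-215-5p lie above 0.

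MiR-122-5p and miR-192-5p changed places between libraries as shares of the members' counts. In library 1 miR-122-5p held 22.3% of them (Wilson 95% interval 21.1 to 23.5) and miR-192-5p 73.9% (72.5 to 75.1). In library 2 the shares were 47.5% (45.6 to 49.3) and 41.6% (39.8 to 43.4). In library 3 they were 73.9% (72.8 to 75.0) and 23.1% (22.1 to 24.1). MiR-194-5p took 3.01%, 10.8% and 2.90%, and miR-215-5p at most 0.874%.

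**Figure D3:**
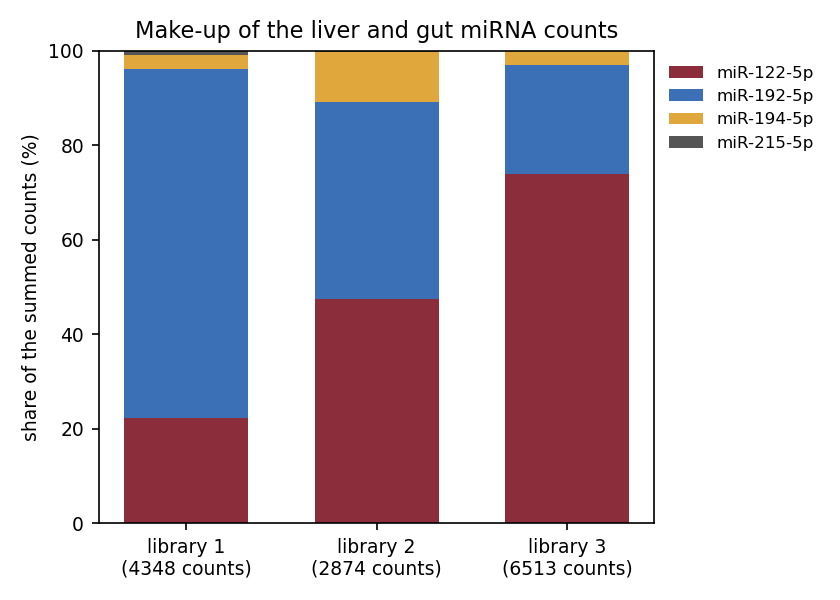
Share (%) of the members' summed counts taken by each counted member in each library, with the summed counts under the bars. The miR-122-5p share is 22.3%, 47.5% and 73.9% in libraries 1, 2 and 3, and the miR-192-5p share 73.9%, 41.6% and 23.1%.

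Ratios within a library do not depend on how libraries are scaled. The order of the 2 most abundant members was not fixed. The ratio of miR-122-5p to miR-192-5p was 0.301 in library 1 (exact 95% interval 0.280 to 0.324), 1.14 in library 2 (1.05 to 1.23) and 3.20 in library 3 (3.02 to 3.39). The lower places kept their order in all 3 libraries, with miR-122-5p and miR-192-5p above miR-194-5p, and miR-194-5p above miR-215-5p. With 3 libraries an exact two-sided sign permutation test of such a ratio cannot go below p = 0.25 (n = 3). That was the value for each of these 3 orders, or 0.286 after exact permutation p-values of all 8 ratios examined were adjusted by Benjamini-Hochberg, and p was 1 for miR-122-5p over miR-192-5p.

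MiR-192-5p and miR-194-5p, although encoded 115 bases apart in the chromosome 19 cluster, did not keep a steady ratio. MiR-192-5p over miR-194-5p was 24.5 in library 1 (exact 95% interval 20.6 to 29.4), 3.87 in library 2 (3.41 to 4.40) and 7.96 in library 3 (6.84 to 9.31), and no pair of these intervals overlaps. The range of 2.66 on the log2 scale was above the median of neighbours but within their span. The comparison took 40 pairs of adjacent hairpins, this one included, on the same strand no more than 10000 bases apart. Each reached 100 counts in all. The median range was 2.05, and 13 pairs ranged more widely and 26 less widely. Several of those pairs share a miRNA or a cluster, so they are not independent, and some of their mature strands, like miR-194-5p, come from more than 1 hairpin.

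The ratio of the seed partners was lowest in library 1. MiR-192-5p over miR-215-5p was 84.5 in library 1 (exact 95% interval 61.4 to 120), 239 in library 2 (102 to 738) and 214.9 in library 3 (104 to 535). In Fisher's exact test of the counts, two-sided and adjusted by Benjamini-Hochberg over 24 comparisons (8 ratios in 3 pairs of libraries), library 1 differed from library 2 and from library 3 in this ratio, with an adjusted p of 0.035 for each. Libraries 2 and 3 did not pass it, with an adjusted p of 1, and miR-215-5p had 5 and 7 counts there. The test was chosen after the values were seen and covers counting error only, and the interval of library 1 overlaps both others. Per 100 counts of miR-192-5p there were 1.18, 0.418 and 0.465 of miR-215-5p. The sources used here do not say how reads matching both names with a mismatch were assigned, so counts of miR-215-5p this far below those of a near-identical miRNA are uncertain.

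**Figure D4:**
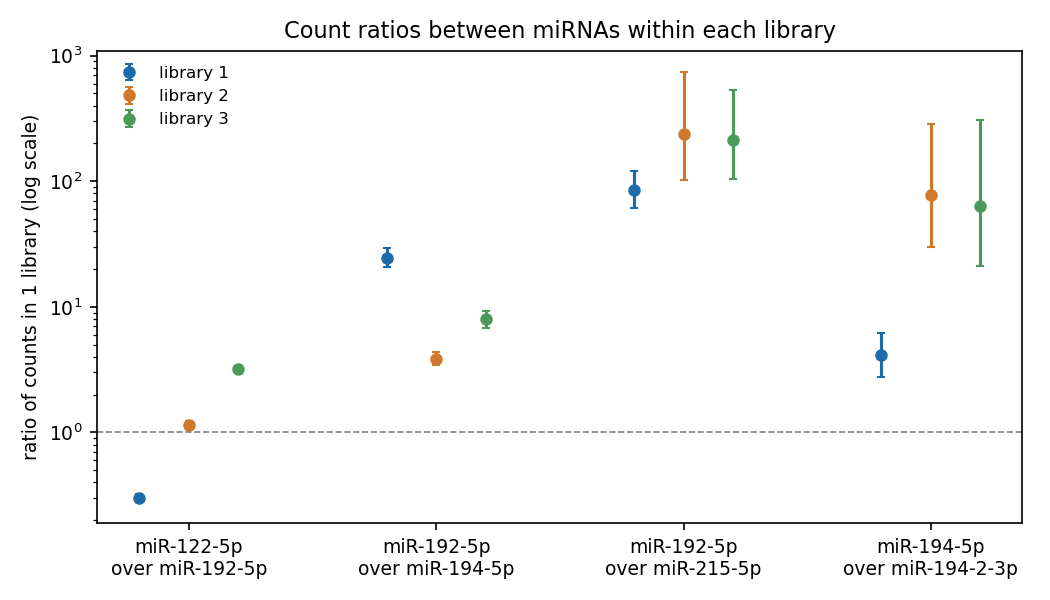
Ratios of counts within each library (log axis) with exact 95% counting intervals, 1 point per library; the dashed line marks equal counts. MiR-122-5p over miR-192-5p crosses the line, at 0.301, 1.14 and 3.20 in libraries 1, 2 and 3, and miR-194-5p over miR-194-2-3p is lowest in library 1 at 4.09.

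The 3p arms were absent or rare. MiR-122-5p exceeded its 3p arm at least 323-fold, 455-fold and 1604-fold in libraries 1, 2 and 3, and miR-192-5p exceeded its 3p arm at least 1070-fold, 399-fold and 501-fold, each against 3 counts per library. Both differences passed edgeR's quasi-likelihood test over 157 hairpins with paired arm names, with Benjamini-Hochberg adjusted p of 6.61e-15 for miR-122 and 9.56e-15 for miR-192. The 5p arm was called higher in 41.4% of those hairpins. Of 88 hairpins with at least 1000 counts on their main arm, 9 had 0 counts on the other arm in all libraries. These were miR-122 and miR-192, with miR-101b, miR-107, miR-320, miR-374b, miR-421, miR-542 and miR-7b. The median share of the lesser arm over the 88 was 0.416%. MiR-215-3p had 0 counts as well, and by the same rule miR-215-5p was at least 12.7-fold, 1.67-fold and 2.33-fold higher in libraries 1, 2 and 3.

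The miR-194 hairpins differed in their 3p arms. MiR-194-1-3p, from the cluster with miR-215, had 0 counts in all libraries, and miR-194-2-3p, from the cluster with miR-192, had 32, 4 and 3. All 39 counts of a miR-194 3p arm thus carried the name of the chromosome 19 copy (100%, exact 95% interval 91.0 to 100). That interval pools the libraries and rests mostly on the 32 counts of library 1, since 4 and 3 counts alone bound the share loosely. MiR-194-2-3p was high in library 1, like miR-192-5p and miR-215-5p and unlike miR-194-5p, with a ratio of library 1 to library 2 of 6.62 (exact 95% interval 2.35 to 25.8) and to library 3 of 11.4 (3.56 to 58.1). The ratio of miR-194-5p to miR-194-2-3p was 4.09 in library 1 (2.76 to 6.23), against 77.3 in library 2 (29.9 to 285) and 63.0 in library 3 (21.2 to 308).

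The miRNAs with the most similar profiles differed from member to member. Likeness was the root mean square difference of log2(CPM + 1), each miRNA centred on its own mean, over 3 libraries and 352 other miRNAs. For miR-122-5p the closest were miR-708-3p at 0.17, miR-129-5p at 0.17 and miR-139-5p at 0.19, the last with 868, 1073 and 3382 CPM in libraries 1, 2 and 3. For miR-192-5p they were miR-125a-3p at 0.026, miR-421-3p at 0.027 and miR-664-3p at 0.089. For miR-194-5p they were miR-142a-5p at 0.0055, miR-19b-3p at 0.017 and miR-181a-1-3p at 0.13. MiR-142a-5p, from a hairpin restricted to blood cells, had 292, 818 and 390 CPM, the same order of libraries as miR-194-5p. For miR-215-5p they were miR-8120 at 0.077, miR-582-3p at 0.082 and miR-6979-3p at 0.092. No member was among the 3 closest of another: the nearest was miR-192-5p, in place 84 of 352 for miR-215-5p, while miR-194-5p stood in place 278 for miR-192-5p and miR-122-5p in place 307. With 3 values per miRNA, close profiles are common and are given as a description.

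Other miRNAs known from liver or gut were highest in different libraries. Of 12 such miRNAs outside the list of members, 9 were counted in all libraries and both arms of miR-802, which is enriched in liver and intestine, had 0 counts throughout. MiR-101a-3p, abundant in liver and many other tissues, had 2723, 1675 and 1266 CPM in libraries 1, 2 and 3. MiR-148a-3p, abundant in liver and in many other tissues, had 1225, 1008 and 2820 CPM. The epithelial miR-200b-3p had 26.3, 204 and 108 CPM, and miR-375-3p, known from pancreatic islets and gut endocrine cells, had 2, 8 and 34 counts. The epithelial miR-200c-3p had 20.3, 142 and 152 CPM, and miR-203-3p, known from stratified epithelium, had 15.3, 8.84 and 53.0 CPM. Of the 9 counted in all libraries, 2 were highest in library 1, 3 in library 2 and 4 in library 3. The last were miR-148a-3p, miR-200c-3p, miR-203-3p and miR-375-3p. Over all tested miRNAs, 68.0% were higher in library 1 than in library 2 and 64.9% higher than in library 3. These shares compare libraries in pairs and are not a background for counts of the highest library. Some of these places rest on few counts, as for miR-429-3p with 16, 13 and 13 and miR-141-3p with 7, 9 and 5. Of the 8 tested miRNAs of this list 6 were called in the chi-square test, beside the 90.1% called overall.

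Set beside miRNAs restricted to other organs, miR-122-5p and miR-192-5p were high, while miR-215-5p was below miR-205-5p of that list in every library. All 17 miRNAs of a list for muscle, brain, pancreas, eye and skin were below both in every library, and 8 of the 17, among them the neuronal miR-124-3p and the pancreatic miR-216a-5p and miR-217-5p, had 0 counts throughout. Their sum was 37.6, 104 and 38.0 CPM. The highest by the mean were the epithelial miR-205-5p at 17.6, 87.6 and 3.74 CPM, the neural miR-9-5p at 5.65, 10.8 and 14.0 CPM, and miR-184-3p, known from cornea and lens, at 1.99, 1.20 and 14.3 CPM. The muscle miRNA miR-1a-3p had 1, 0 and 3 counts.

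Markers of other cells that a marrow culture could hold were highest in sum in library 1. Most tested miRNAs were higher there too, with median log2 ratios of 0.75 over library 2 and 0.97 over library 3. The erythroid sum exceeded both medians, and the endothelial and stromal sum exceeded neither. All 5 erythroid names were counted in libraries 1 and 2, and 3 of them in library 3. The list summed to 145, 37.8 and 19.9 CPM in libraries 1, 2 and 3. It summed to 90.4, 28.1 and 15.6 CPM with the identical counts of miR-486a-5p and miR-486b-5p taken once. That pair had 54.2, 9.64 and 4.36 CPM each and miR-451a, the red cell miRNA, 33.9, 17.3 and 11.2 CPM. Erythroid miRNAs were thus highest in library 1, as were miR-192-5p, miR-215-5p and miR-194-2-3p. Their part in those levels was not tested. Of 6 endothelial and stromal markers 5 were counted in every library, with a sum of 273, 186 and 160 CPM, also highest in library 1, led by miR-199a-3p at 223, 125 and 114 CPM, miR-126a-3p at 21.6, 43.8 and 23.7 CPM and miR-143-3p at 20.9, 14.1 and 19.6 CPM. All 6 were below miR-122-5p and miR-192-5p in each library. Of the 8 macrophage and myeloid markers, 3 were below both in each library. The lead of that list, miR-21a-5p, had 37316, 305278 and 261488 CPM, miR-146a-5p had 33401, 35012 and 36543 CPM, and miR-155-5p had 74.8, 2388 and 829 CPM, so miR-155-5p stood below miR-122-5p in libraries 1 and 3 and above it in library 2.

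**Figure D5:**
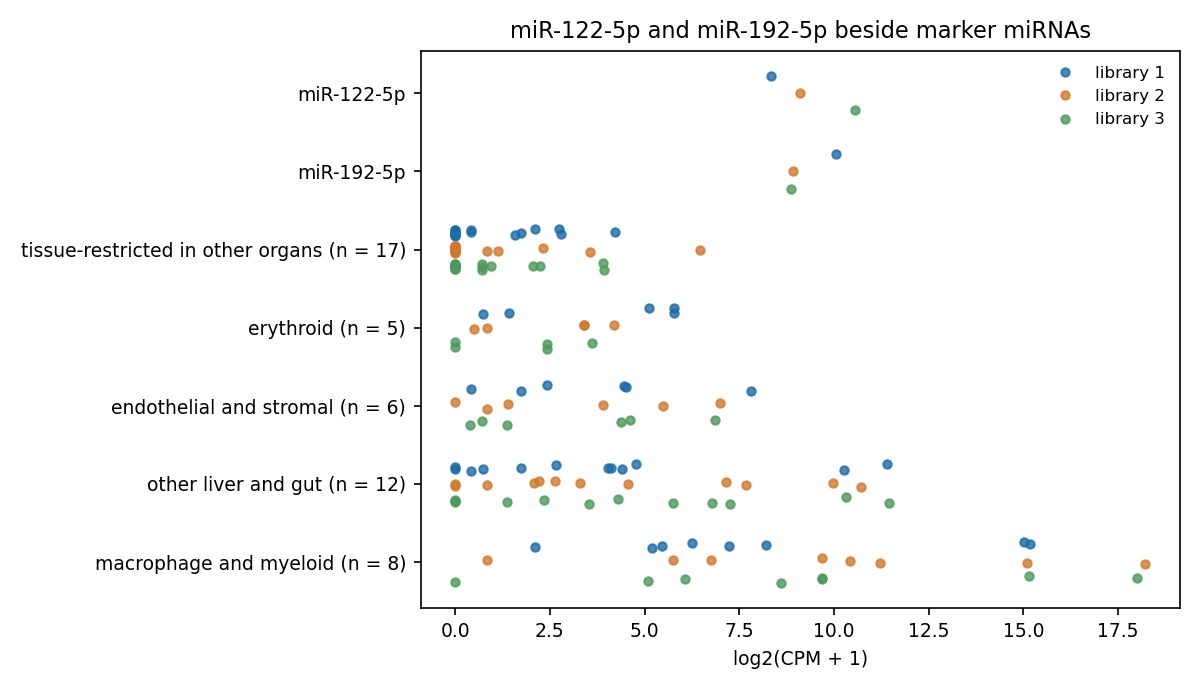
Log2(CPM + 1) of miR-122-5p, miR-192-5p and the miRNAs of 5 marker lists, 1 point per miRNA and library (colours), with a small vertical scatter to part the points. All points of the list restricted to other organs, up to 87.6 CPM, lie left of the miR-122-5p and miR-192-5p points of the same library, while the myeloid list reaches 305278 CPM.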

How the data were processed

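Per the labels, RNA was extracted from exosome pellets with TRIzol, and adapter-ligated libraries (NEBNext small RNA kit) were size-selected on a gel and read from 1 end for 50 bases on a HiSeq. The submitters' processing notes name bcl2fastq, BWA and mm10 with no version. Trimming, mismatch limits, the miRNA release and the handling of multi-mapping reads are not given in the sources used here. For each mature miRNA the authors deposited a raw count, which was tested, and an RPM value per 1000000 of a total in which miRNA counts are 21.4%, 17.8% and 22.9%, used as an alternative.

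Counts were scaled to miRNA totals of 3008995, 2489984 and 3208617. A chi-square test ran over miRNAs reaching 30 counts in all (scipy 1.17.1), and edgeR 4.0.16's quasi-likelihood test, with library and arm as terms, over hairpins with at least 60, both at an adjusted p of 0.05. Ratio intervals are exact and conditional, and shares carry Wilson or exact 95% intervals. Fold ratios on the log2 scale over all miRNAs used 0.5 added counts. Both tests were tested on simulated data. Alternatives were TMM and DESeq2 1.42.0 size factors, other minimum counts, DESeq2 for arms and leaving out each library. Named miRNAs are the members, the other arms of their hairpins, the 3 closest profiles, the 3 highest of each marker list and miRNAs sharing a seed. Others named, from the lists and among hairpins without a second arm, were chosen after their values were seen, as were the comparison of neighbouring hairpins and Fisher's exact test of ratios. The members and lists were chosen with earlier results of these data known. The labels do not show separate cultures. The chi-square and Fisher's exact tests cover counting error only, and the edgeR test rests on the spread between these libraries.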

Additional observations from a re-analysis of the deposited data

How the results depend on the processing

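Over 141 alternative values of 29 results, 113 stayed in the same direction and within the limits set, 26 were labelled moved and 2 reversed. Those limits were wide for mean levels. They took in miR-122-5p at 435 CPM without library 3, from 790, and miR-215-5p at 2.09 CPM without library 1, from 5.61. Among the values labelled moved, the log2 ratio of library 2 to library 3 for miR-192-5p changed sign. It went from 0.035 to -0.21 with TMM factors, -0.19 with DESeq2 size factors and -0.33 with the authors' RPM totals. With library 1 left out, the chi-square test called 2 of 3 tested members in place of 4 of 4, and 177 of 288 miRNAs (61.5%) in place of 318 of 353 (90.1%). Over leaving out each library the calls ranged from 2 to 4 members and from 177 to 284 miRNAs, or 61.5% to 87.5% of those tested. Under TMM factors, DESeq2 size factors, the authors' RPM totals and a minimum of 10 counts, 4 members were called. Beside them 89.5%, 89%, 91.5% and 78.2% of all tested miRNAs were called. With a minimum of 100, which miR-215-5p does not reach, 3 members were called, beside 94.1% of all tested. The mean log2 ratio of miR-122-5p over miR-192-5p was 0.046, and leaving out each library in turn gave -0.77 to 0.93, reversed at -0.026 without replicate 2 and -0.77 without replicate 3. With TMM factors all log2 ratios of library 1 moved by -0.61 against library 2 and by -0.86 against library 3, which left miR-192-5p at 0.54 and 0.32 in place of 1.15 and 1.19. The arm calls of miR-122 and miR-192 held under every alternative run, with adjusted p up to 2.59e-06 (edgeR) when a library was left out, and their 5p-higher background ran from 51 to 83 hairpins. With arm as the only term (no replicate block), the adjusted p were 3.49e-15 for miR-122 and 8.51e-15 for miR-192. No paired analysis between groups was possible because there is 1 group. Depth limits miR-215-5p and miR-194-2-3p, with 3 to 7 counts in libraries 2 and 3.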
